A study of Saccharomyces cerevisiae with 8 samples.

Results

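The 43 genes described here encode the machinery by which budding yeast, Saccharomyces cerevisiae, takes proteins off its plasma membrane and sorts them into the vacuole. They were taken by name: the subunits of the ESCRT complexes and their cofactors, the ubiquitin ligase Rsp5 with its arrestin-related and transmembrane adaptors, and a set of endocytic coat proteins. All 43 are measured, each by 1 probe set, among 5449 yeast genes on the array. Total RNA was profiled on 8 arrays, 4 from cultures expressing Kir2.1, a mammalian inwardly rectifying potassium channel, from plasmid pRS416TEF-Kir2.1-HA, and 4 from cultures with the vector pRSGPD426. Cultures of both groups were kept at 26 °C in selective medium and harvested in mid-exponential phase, and the sources used here do not name the strain. The groups thus differ in plasmid as well as in the channel, and the word re-analysis stands in the titles of the 4 controls but in none of the Kir2.1 titles. Effects of the plasmid, of the channel and of whatever that word refers to cannot be told apart. The series describes its replicates as biological. Kir2.1 itself was not analysed here.

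In this pathway Rsp5, a ligase of the Nedd4 family, attaches ubiquitin to transporters and receptors. It finds many of them through adaptors, of which the arrestin-related proteins work mainly at the plasma membrane and the Golgi and several transmembrane adaptors on internal membranes. Ubiquitinated proteins enter by clathrin- and actin-based endocytosis. ESCRT-0, -I, -II and -III then act in turn on the endosome to gather them and bud them into vesicles inside it, Doa4 recovers the ubiquitin, and the ATPase Vps4 takes the ESCRT-III filament apart. Because Kir2.1 is a foreign protein of the plasma membrane, and ESCRT has been studied in yeast as a route of its removal, the comparison asks whether transcripts of this machinery differ between cells with and without the channel.

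Each level below is on a log2 scale that was rebuilt from standardized scores, with the array's own median gene at 0. Differences are Kir2.1 minus vector control on that scale. Calls required limma's moderated test to give p under 0.05 after Benjamini-Hochberg adjustment across the 5449 genes. The centring on the median gene shifts every difference alike: without it each difference would be 0.13 lower (-0.13). In bulk cultures, less RNA per cell and fewer cells with the transcript cannot be told apart. Levels are not compared between genes, since each probe set has its own brightness.

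No member passed the threshold. Limma called 0 of the 43 members and 0% of all genes, and without moderation of the variances it also called 0 members. At an unadjusted p under 0.05, 1 member was higher in the Kir2.1 arrays, SNF8, against 6.37% of all genes. By the same rule 2 members were lower, VPS28 and LDB19, against 1.98% of all genes. The same 3 genes were the members whose groups did not overlap: SNF8 lay above all controls on every Kir2.1 array, as did 5.05% of all genes, and VPS28 and LDB19 lay below all controls, as did 1.54% of all genes. The median difference of the members was 0.04, against 0.03 over all genes, and 28 of 43 members averaged higher with Kir2.1, against 58.7% of all genes. That count was 25 after quantile normalization, 19 with centring on the 75th percentile and 8 without centring. On the median-centred scale the 95% intervals of all 43 members lay within 2-fold in either direction, and those of 40 within 0.5 in log2 units. They do not include the choice of centring, without which each difference would be 0.13 lower (-0.13).

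**Figure D1:**
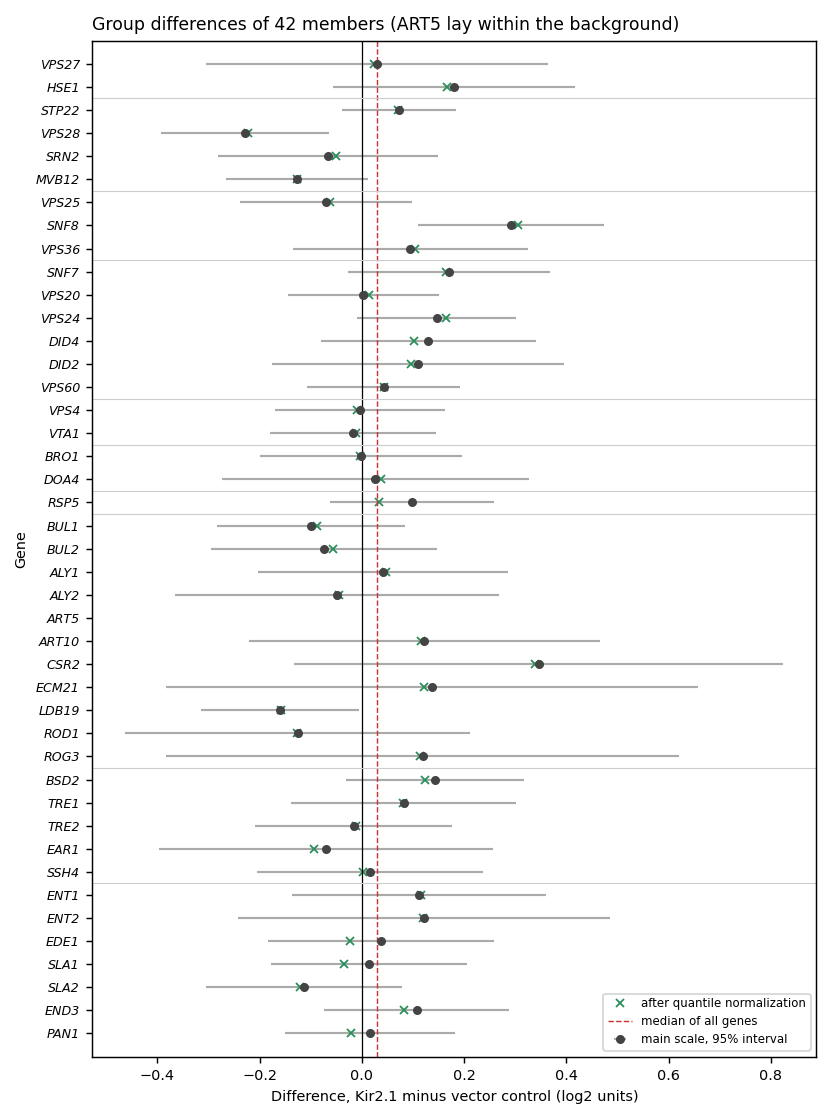
Difference of each member above background on at least 1 array, Kir2.1 minus vector control, in log2 units (circles, with 95% intervals from limma, n = 4 arrays each), and the same difference after quantile normalization (crosses). The intervals of SNF8, VPS28 and LDB19 do not reach 0, and the dashed line marks the median of all genes at 0.03.

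Calls among the members appeared in 2 of the 22 alternatives, and both treated the arrays unequally. Kir2.1 replicates 1 and 3, together with vector control replicate 1, stood apart from the other 5 arrays, with a mean of 13 iron regulon genes at 2.44 and 2.60 on Kir2.1 replicates 1 and 3 and 2.16 on vector control replicate 1, against -0.72 to -0.0050 elsewhere. The first principal component of all genes, with 67.0% of the variance, separated the same arrays. With array weights estimated by limma, 9 members were called, 8 higher (BSD2, CSR2, DID4, ECM21, ENT2, HSE1, SNF7 and SNF8) and 1 lower (LDB19). These make up 20.9% of the members, against 31.8% of all genes called in that fit. With Kir2.1 replicate 2 and vector control replicate 1 both left out, a choice made from their values, 1 member was called, HSE1, at 0.33 (limma adjusted p = 0.0279), or 2.33% of the members against 9.32% of all genes. When the 3 arrays of high iron regulon level were omitted, 0 members were called.

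The order of the arrays in the members was set beside that in all genes. Kir2.1 replicates 1 and 3 and vector control replicate 1 held the 3 highest levels in 8 of 43 members (18.6%) and in 16.7% of all genes, and the 3 lowest in 1 member (2.33%) and in 18.4% of all genes. Single lowest and highest arrays were also counted, a choice made after the values were seen. The members share these arrays, so they are not independent cases. Kir2.1 replicate 2 was the lowest of the 8 arrays in 17 of 43 members (39.5%), against 15.6% of all genes. Vector control replicate 1 was the highest in 11 members (25.6%), against 7.96% of all genes. The median deviation of the members from their own 8-array means was 0.04, -0.13, 0.06 and 0.04 on Kir2.1 replicates 1 to 4, against 0.10, -0.04, -0.07 and -0.07 on vector control replicates 1 to 4. In 38 of 43 members the standard deviation was larger in the Kir2.1 group, as it was in 84.0% of all genes.

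**Figure D2:**
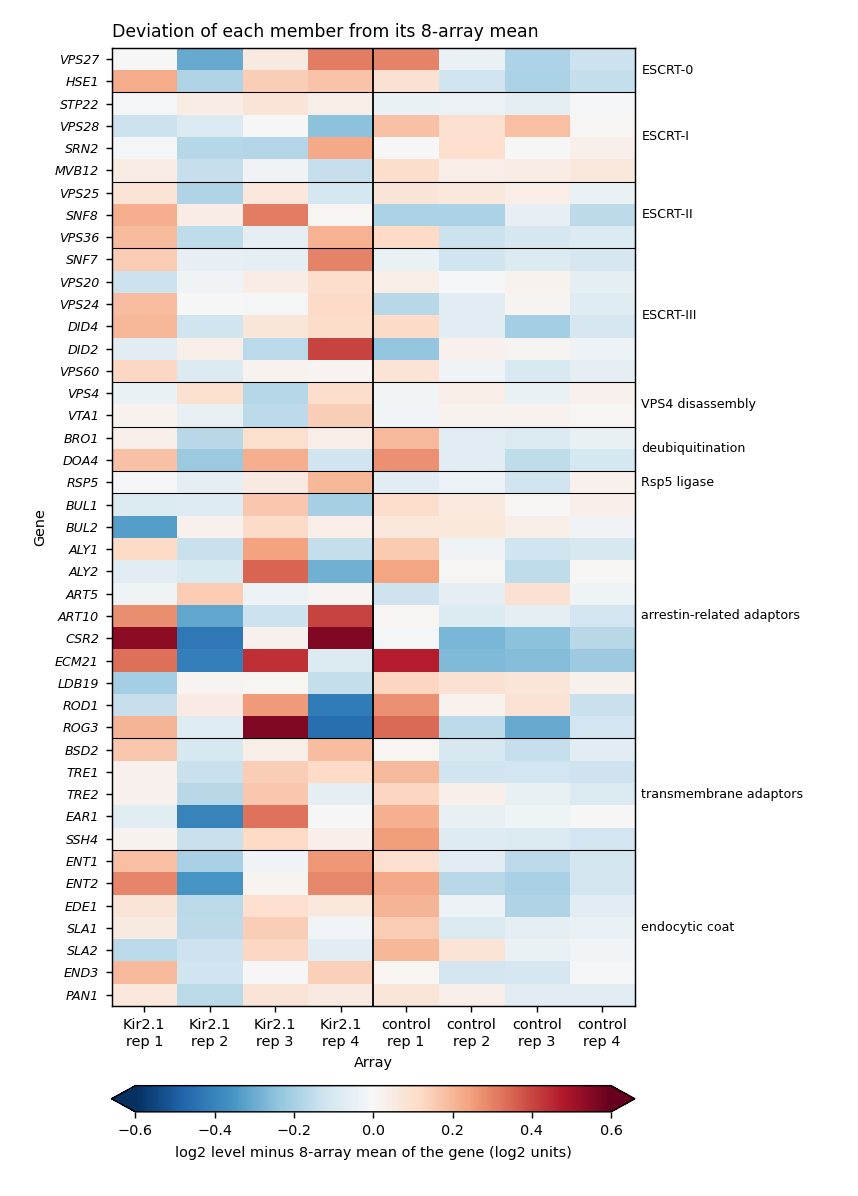
Level of each member on each array minus its mean over the 8 arrays, in log2 units, with Kir2.1 arrays on the left, vector control arrays on the right and rows grouped by role. The column of Kir2.1 replicate 2 is mostly blue (median deviation -0.13) and that of vector control replicate 1 mostly red (0.10), and the strongest colours lie in the rows of the arrestin-related genes.

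ESCRT-0 binds ubiquitinated cargo first. Its subunit gene HSE1 stood at 0.63, 0.23, 0.56 and 0.58 on Kir2.1 replicates 1 to 4, against 0.50, 0.29, 0.22 and 0.27 on vector control replicates 1 to 4. The difference was 0.18 with a standard error of 0.10. Kir2.1 replicate 2 lay among the controls, and vector control replicate 1 approached the other Kir2.1 arrays. VPS27, its partner and the subunit that binds the endosomal lipid, stood at 0.08, -0.23, 0.12 and 0.38 in Kir2.1 arrays, against 0.37, 0.03, -0.11 and -0.06 in controls. Its difference of 0.03 (SE 0.15) was small beside this spread.

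Of the 4 ESCRT-I genes, 3 averaged lower with Kir2.1, and all 4 did without centring. VPS28, whose product connects ESCRT-I to ESCRT-II, stood at -0.48, -0.43, -0.34 and -0.59 in Kir2.1 arrays, against -0.17, -0.25, -0.17 and -0.34 in controls. All 4 Kir2.1 values lay below all 4 control values, by a narrow margin between Kir2.1 replicate 3 and vector control replicate 4. The difference was -0.23 (SE 0.07, limma adjusted p = 0.551), a 0.853-fold level, and it ran from -0.27 to -0.19 over omissions of single arrays. After quantile normalization it was -0.22 and the groups overlapped. MVB12, a small subunit that stabilises the complex, stood at 0.22, 0.04, 0.16 and 0.04 in Kir2.1 arrays, against 0.28, 0.22, 0.22 and 0.25 in controls. Its difference was -0.13 (SE 0.06, limma adjusted p = 0.619), and Kir2.1 replicate 1 lay at the level of the lower controls. STP22, the ubiquitin-binding subunit also known as Vps23, had the smallest spread of all members. It stood at 0.07 to 0.15 in Kir2.1 arrays, against 0.02 to 0.07 in controls, with a difference of 0.07 (SE 0.05). Its groups overlapped on the main scale and not after quantile normalization. SRN2, the Vps37 subunit, had levels from -1.12 to -0.71 in Kir2.1 arrays, against -0.94 to -0.84 in controls, and a difference of -0.07 (SE 0.09).

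ESCRT-II links ESCRT-I to the filament-forming ESCRT-III. Its subunit gene SNF8, also known as VPS22, gave the smallest p of all members. It stood at -0.42, -0.59, -0.33 and -0.62 in Kir2.1 arrays, against -0.82, -0.83, -0.68 and -0.79 in controls, so that the groups did not overlap. The difference was 0.29 (SE 0.08, limma adjusted p = 0.551), a 1.22-fold level, and larger than that of 96.0% of all genes counted by sign. It ran from 0.24 to 0.34 over omissions of single arrays and was 0.16 with the 3 arrays of high iron regulon level omitted, 0.16 without centring and 0.36 with array weights (limma adjusted p = 0.0192). Centring on the 75th percentile or leaving out the centring made its groups overlap.

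The other ESCRT-II subunits had smaller differences, and their groups overlapped. VPS25, which contacts ESCRT-III, stood at -0.48, -0.74, -0.50 and -0.67 in Kir2.1 arrays, against -0.49, -0.50, -0.52 and -0.60 in controls (difference -0.07, SE 0.07). VPS36, which binds lipid and ubiquitin, stood at -0.33, -0.67, -0.57 and -0.31 in Kir2.1 arrays, against -0.39, -0.65, -0.61 and -0.60 in controls (difference 0.09, SE 0.10). Taken within each array, which leaves out any centring, SNF8 minus VPS25 was 0.06, 0.16, 0.18 and 0.05 in Kir2.1 arrays, against -0.34, -0.32, -0.16 and -0.19 in controls. These 2 sets of values did not overlap. In ESCRT-I, VPS28 minus STP22 was -0.54, -0.55, -0.50 and -0.71 in Kir2.1 arrays, against -0.21, -0.29, -0.19 and -0.41 in controls, again without overlap. SNF8 minus VPS36 was -0.09, 0.08, 0.25 and -0.32 in Kir2.1 arrays, against -0.43, -0.18, -0.07 and -0.20 in controls, and here the groups overlapped. VPS24 minus VPS20, from ESCRT-III, ran from -0.47 to -0.11 in Kir2.1 arrays, against -0.62 to -0.42 in controls, also with overlap. SNF8 and VPS28 already had separate groups, and their partners VPS25 and STP22 differed in the opposite direction. The separation of SNF8 minus VPS25 and of VPS28 minus STP22 is therefore not read as further support. All 4 pairs were chosen after their values were seen, so no test is given.

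**Figure D3:**
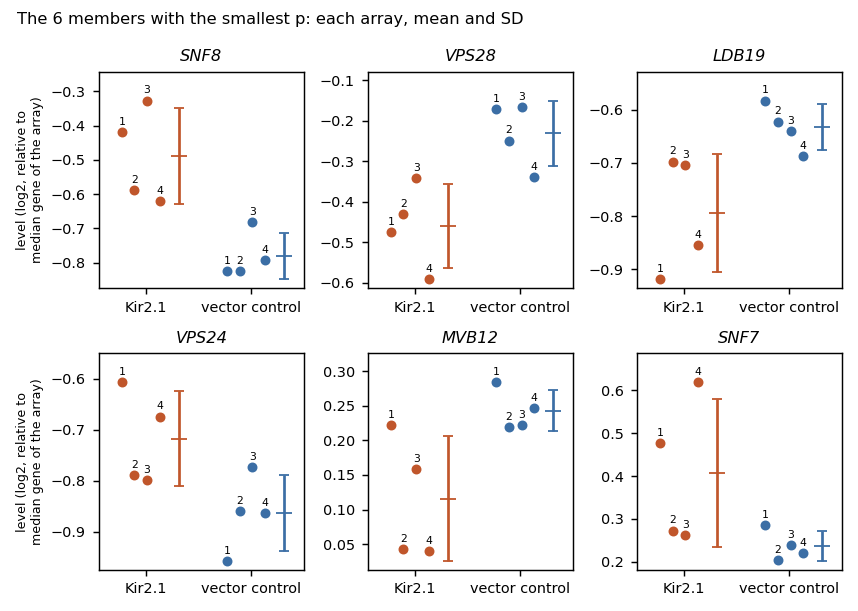
Levels on each array (numbered by replicate), with mean and SD beside them, for the 6 members with the smallest p, in log2 units with the median gene of each array at 0, Kir2.1 left and vector control right (n = 4 each). The groups are apart for SNF8, VPS28 and LDB19 and overlap for VPS24, MVB12 and SNF7.

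In ESCRT-III all 6 members averaged higher with Kir2.1 on the main scale and after quantile normalization, 4 with centring on the 75th percentile and 3 without centring. Their differences ran from 0.0024 to 0.17 with a median of 0.12, and 0 passed the test. Without the centring the differences of SNF7 and VPS24 were 0.04 and 0.02. SNF7, the main filament subunit, stood at 0.48, 0.27, 0.26 and 0.62 in Kir2.1 arrays, against 0.28, 0.20, 0.24 and 0.22 in controls (difference 0.17, SE 0.09, limma adjusted p = 0.651). Kir2.1 replicates 1 and 4 were high, and replicates 2 and 3 lay at the upper end of the controls. VPS24, which joins the filament after Snf7, stood at -0.61, -0.79, -0.80 and -0.67 in Kir2.1 arrays, against -0.96, -0.86, -0.77 and -0.86 in controls (difference 0.15, SE 0.07, limma adjusted p = 0.617). Kir2.1 replicates 2 and 3 lay slightly below vector control replicate 3.

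DID4, the Vps2 subunit that helps to recruit Vps4, stood at 0.94, 0.62, 0.81 and 0.85 in Kir2.1 arrays, against 0.85, 0.67, 0.54 and 0.64 in controls (difference 0.13, SE 0.09). DID2, an accessory subunit, stood at 0.41, 0.51, 0.32 and 0.88 in Kir2.1 arrays, against 0.24, 0.51, 0.50 and 0.45 in controls (difference 0.11, SE 0.13). Kir2.1 replicate 4 stood alone above the other arrays, and the 3 arrays with high iron regulon values held its 3 lowest levels. VPS60, another accessory subunit, differed by 0.04 (SE 0.07), and VPS20, which starts the filament, by 0.0024 (SE 0.06).

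The genes of filament disassembly had mean differences close to 0. VPS4 stood at 0.37, 0.51, 0.25 and 0.52 in Kir2.1 arrays, against 0.40, 0.45, 0.37 and 0.44 in controls (difference -0.0040, SE 0.07). VTA1, the activator of Vps4, stood at -0.31, -0.37, -0.48 and -0.18 in Kir2.1 arrays, against -0.34, -0.31, -0.31 and -0.32 in controls (difference -0.02, SE 0.07). The controls of VTA1 were close together, with an SD of 0.02, while the Kir2.1 arrays lay on both sides of them with an SD of 0.13. The 95% intervals were -0.17 to 0.16 for VPS4 and -0.18 to 0.14 for VTA1.

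Ubiquitin is removed from cargo by Doa4, which the ESCRT-associated protein Bro1 recruits. DOA4 stood at -0.15, -0.55, -0.11 and -0.45 in Kir2.1 arrays, against -0.05, -0.40, -0.48 and -0.43 in controls. Its 3 high arrays were those with high iron regulon values, and its group difference was 0.03 (SE 0.13). BRO1 stood at 0.32, 0.12, 0.38 and 0.33 in Kir2.1 arrays, against 0.48, 0.22, 0.20 and 0.24 in controls. Kir2.1 replicate 2 was its lowest array and vector control replicate 1 its highest, and the difference was -0.0010 (SE 0.09).

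RSP5, the 1 ligase gene of the set, stood at 1.94, 1.89, 1.998 and 2.15 in Kir2.1 arrays, against 1.88, 1.91, 1.82 and 1.97 in controls. The groups overlapped, with Kir2.1 replicate 4 above the rest. The difference was 0.10 (SE 0.07, 95% interval -0.06 to 0.26), 0.03 after quantile normalization and -0.03 without centring.

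The arrestin-related adaptors, which bring Rsp5 to particular transporters, varied most among arrays of the same group. Of the 43 members, the 3 whose standard deviation within groups lay in the highest 10% of all genes, ECM21, ROG3 and CSR2, belong to these 11 adaptors. The median percentile of their standard deviation among all genes was 77.6, against 54.3 for the transmembrane adaptors, 42.5 for the endocytic coat and 37.1 for the ESCRT genes with their cofactors. Within the ESCRT genes it was 70.3 for ESCRT-0 and 60.1 for the deubiquitination pair, and 19.5 to 37.1 for the other complexes. ROG3 and CSR2 did not clear the background (defined below) on every array, and ECM21 did. Spread in dim genes depends on the assumed zero, here 0.005 below the lowest score. At 0.02 below it, the standard errors of CSR2, ROG3 and ECM21 were 0.19, 0.20 and 0.22, against 0.21, 0.22 and 0.23. Of the 11, 6 averaged higher with Kir2.1 and 5 lower, against 5 higher with centring on the 75th percentile and 2 without centring. Their median difference was 0.04, and 0 passed the test.

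ECM21, also known as ART2, stood at 0.96, 0.21, 1.06 and 0.55 in Kir2.1 arrays, against 1.10, 0.36, 0.37 and 0.41 in controls. Kir2.1 replicates 1 and 3 and vector control replicate 1 lay together, well above the other 5 arrays, so that the SD was 0.39 in Kir2.1 arrays and 0.36 in controls and the difference of 0.14 (SE 0.23) fell within it. ROG3 (ART7) had the same 3 arrays highest, at -1.14, -1.41, -0.78 and -1.80 in Kir2.1 arrays, against -1.003, -1.50, -1.65 and -1.46 in controls (difference 0.12, SE 0.22). Its value on Kir2.1 replicate 4 lay within the background, defined as the 95th percentile of probe sets for fission yeast genes on the same array. CSR2 (ART8) followed another order, with -1.03, -2.00, -1.54 and -1.01 in Kir2.1 arrays, against -1.58, -1.84, -1.82 and -1.74 in controls. Kir2.1 replicates 1 and 4 were its highest arrays, and Kir2.1 replicate 2, within the background, its lowest. Its difference of 0.35 (SE 0.21) was the largest of all members with all arrays included, with a 95% interval from -0.13 to 0.82. It was 0.55 without Kir2.1 replicate 2, 0.22 without Kir2.1 replicate 1 and 0.22 without Kir2.1 replicate 4, and SNF8 had the larger difference without Kir2.1 replicate 1, Kir2.1 replicate 4 or vector control replicate 3. It was above background on 3 of 4 Kir2.1 arrays and 3 of 4 control arrays.

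ROD1 (ART4), which acts on sugar and lactate transporters when glucose is added, stood at -1.40, -1.21, -1.004 and -1.68 in Kir2.1 arrays, against -0.98, -1.24, -1.17 and -1.39 in controls (difference -0.13, SE 0.15). Kir2.1 replicate 4 was the lowest array for ROD1 as for its paralog ROG3. LDB19 (ART1), which directs the arginine and methionine permeases Can1 and Mup1 to Rsp5, was the adaptor with the smallest p. It stood at -0.92, -0.70, -0.70 and -0.85 in Kir2.1 arrays, against -0.58, -0.62, -0.64 and -0.69 in controls. The groups did not overlap, although Kir2.1 replicates 2 and 3 lay close under vector control replicate 4. The difference was -0.16 (SE 0.07, limma adjusted p = 0.591), a 0.895-fold level, with a range of -0.19 to -0.12 over omissions of single arrays. After quantile normalization it was -0.16 and the groups overlapped. With array weights it was -0.19 (limma adjusted p = 0.0396).

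ALY1 (ART6) and ALY2 (ART3), a paralogous pair that acts on amino acid permeases, differed by 0.04 (SE 0.11) and -0.05 (SE 0.14). ALY2 stood at -0.03, -0.05, 0.39 and -0.25 in Kir2.1 arrays, against 0.28, 0.05, -0.11 and 0.05 in controls, with Kir2.1 replicate 3 and vector control replicate 1 highest. ALY1 stood at 0.11, -0.15, 0.23 and -0.15 in Kir2.1 arrays, against 0.15, -0.03, -0.13 and -0.11 in controls. The arrays with high iron regulon values were its 3 highest. BUL1 and BUL2, adaptors of the general amino acid permease Gap1, had differences of -0.10 (SE 0.08) and -0.07 (SE 0.10). BUL2 stood between -1.02 and -0.89 on 7 arrays and at -1.33 on Kir2.1 replicate 1.

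Among the dim adaptors, ART10 stood at -1.51, -2.10, -1.92 and -1.39 in Kir2.1 arrays, against -1.78, -1.88, -1.85 and -1.91 in controls, above background on 2 of 4 Kir2.1 arrays and 2 of 4 controls. Kir2.1 replicates 1 and 4 were its high arrays, as for CSR2. ART5, which acts on an inositol transporter, lay within the background on all 8 arrays, from -2.01 to -1.82 in Kir2.1 arrays, against -2.10 to -1.88 in controls. Its own difference is therefore not read, but ART5 is part of the counts and medians given for the members. It is among the 6 arrestin-related adaptors that averaged higher. With dim genes left out, which drops ART5 alone among the members, 27 of 42 members averaged higher, with a median of 0.03. In all, 38 members were above background on 8 arrays, 4 on some arrays and 1 on none.

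**Figure D4:**
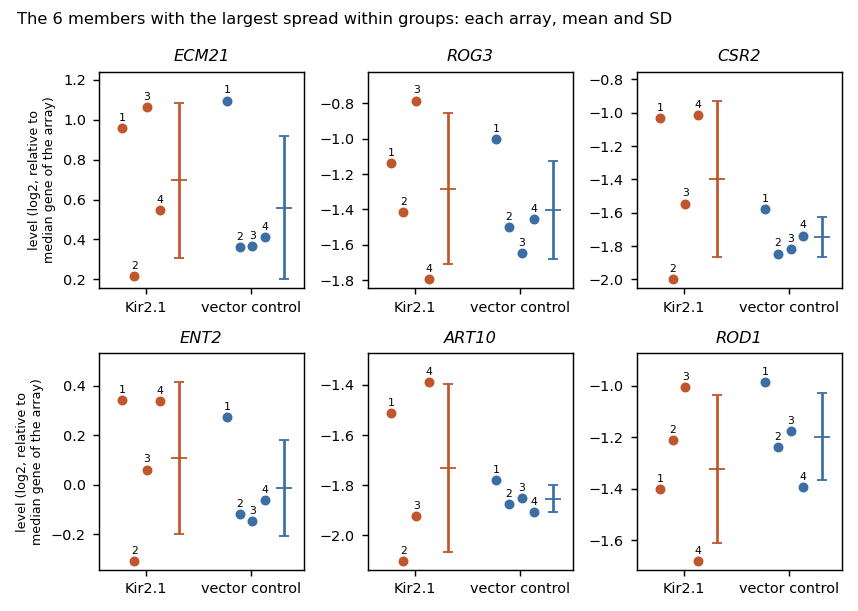
Levels on each array (numbered by replicate), with mean and SD beside them, for the 6 members with the largest SD within groups, in log2 units with the median gene of each array at 0, Kir2.1 left and vector control right (n = 4 each). ECM21 and ROG3 are highest on Kir2.1 replicates 1 and 3 and vector control replicate 1, and CSR2 and ART10 on Kir2.1 replicates 1 and 4.

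Transmembrane adaptors recruit Rsp5 on internal membranes. BSD2, which with Tre1 and Tre2 directs the manganese transporter Smf1 to the vacuole, stood at 0.65, 0.39, 0.52 and 0.67 in Kir2.1 arrays, against 0.50, 0.39, 0.35 and 0.42 in controls (difference 0.14, SE 0.08). Kir2.1 replicate 2 lay among the controls. TRE1 differed by 0.08 (SE 0.10) and TRE2 by -0.02 (SE 0.08). TRE1 stood at 0.12, -0.03, 0.25 and 0.22 in Kir2.1 arrays, against 0.29, -0.02, -0.02 and -0.03 in controls, where replicate 1 stood alone above the other 3. EAR1, an adaptor of endosomes, stood at 0.58, 0.24, 0.97 and 0.64 in Kir2.1 arrays, against 0.85, 0.59, 0.61 and 0.64 in controls (difference -0.07, SE 0.14). Kir2.1 replicate 3 was its highest array and Kir2.1 replicate 2 its lowest. SSH4, which acts with Ear1, was above background on 1 of 4 Kir2.1 arrays and 3 of 4 controls and differed by 0.02 (SE 0.10).

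The endocytic coat genes differed little, with a median of 0.04 and 6 of 7 higher in mean, which became -0.02 and 3 of 7 after quantile normalization, and -0.09 and 0 of 7 without centring. The epsin genes ENT1 and ENT2, whose products bind ubiquitin, clathrin and the membrane, shared an array order. ENT2 stood at 0.34, -0.31, 0.06 and 0.34 in Kir2.1 arrays, against 0.27, -0.12, -0.15 and -0.06 in controls (difference 0.12, SE 0.16). ENT1 stood at 0.17, -0.21, -0.04 and 0.25 in Kir2.1 arrays, against 0.09, -0.08, -0.17 and -0.12 in controls (difference 0.11, SE 0.11). For both, Kir2.1 replicates 1 and 4 and vector control replicate 1 were the 3 highest arrays and Kir2.1 replicate 2 the lowest.

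EDE1, a scaffold that arrives early at endocytic sites, stood at 2.01, 1.76, 2.03 and 1.99 in Kir2.1 arrays, against 2.13, 1.89, 1.75 and 1.86 in controls. PAN1, which activates actin assembly, stood at 1.496, 1.27, 1.51 and 1.48 in Kir2.1 arrays, against 1.51, 1.46, 1.36 and 1.36 in controls. Both had Kir2.1 replicate 2 apart below the other Kir2.1 arrays, and differences of 0.04 (SE 0.10) and 0.02 (SE 0.07). SLA1 and END3, which form a complex with Pan1, differed by 0.01 (SE 0.08) and 0.11 (SE 0.08). SLA2, which ties the coat to actin, had the 1 negative difference of the coat genes on the main scale, at -0.11 (SE 0.08), with 0.25 to 0.54 in Kir2.1 arrays, against 0.37 to 0.61 in controls.

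Related members were compared within each array, where any centring cancels, to ask whether both genes of a pair differed equally between groups. Over the 7 pairs the smallest exact two-sided permutation p was 0.171, for TRE1 against TRE2, and all adjusted values were 0.68 or higher. With 4 arrays against 4 this test cannot go below 0.0286, and a single pair at that value would have an adjusted p of 0.20. The ROD1 minus ROG3 value averaged -0.04 in Kir2.1 arrays and 0.20 in controls, a difference of -0.24 with a pooled SD of 0.22 (exact permutation p = 0.20, adjusted p = 0.68). The CSR2 minus ECM21 value differed by 0.21 (pooled SD 0.36, exact permutation p = 0.429). Between the epsin genes ENT1 and ENT2 it differed by -0.0097 (pooled SD 0.11), between ALY1 and ALY2 by 0.09 (0.11), between TRE1 and TRE2 by 0.10 (0.09), between EAR1 and SSH4 by -0.09 (0.15), and between BUL1 and BUL2 by -0.03 (0.15). These differences were within or near the spread between arrays of a group.

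The rest of the pathway was read from 6 lists of 119 measured genes in all, of which 0 were called. Of these, 82 averaged higher with Kir2.1 (68.9%, against 58.7% of all genes), and 67 did after quantile normalization. The median difference was 0.05. At an unadjusted p under 0.05, 11 of the 119 were higher and 1 lower, beside 347 (6.37%) and 108 (1.98%) of all 5449 genes. Without centring each difference would be 0.13 lower (-0.13), a shift larger than the median difference of any of the 6 lists. The actin patch list held 6 of the 11, out of 18 genes, with a median difference of 0.10 that was 0.04 after quantile normalization. ARC19 and ARP3, of the Arp2/3 complex that nucleates actin, differed by 0.21 (SE 0.06) and 0.17 (SE 0.05), and by 0.13 and 0.08 after quantile normalization. In the list of clathrin, the AP-2 adaptor and the early coat, 17 of 23 genes had a higher mean, with a median of 0.05. APM4, the AP-2 subunit that binds cargo, stood at 1.72, 1.61, 1.69 and 1.73 in Kir2.1 arrays, against 1.42, 1.53, 1.45 and 1.49 in controls. LAS17, the yeast WASP protein that turns on actin assembly, stood at -1.50, -1.50, -1.37 and -1.39 in Kir2.1 arrays, against -1.63, -1.64, -1.73 and -1.61 in controls. In both genes the groups did not overlap, and each differed by 0.21 (limma adjusted p = 0.551). Of the 119 genes, 7 lay above all controls on every Kir2.1 array and 1 lay below, beside 5.05% and 1.54% of all genes.

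Transporters and receptors that this machinery removes made up a list of 26 measured genes, 18 of them higher in mean, with a median difference of 0.07 that was -0.02 after quantile normalization. The glucose transporter gene HXT3 differed by 0.19 (SE 0.06; 0.06 after quantile normalization) and the lactate transporter gene JEN1 by 0.21 (SE 0.11). Of the kinases, phosphatases and 14-3-3 proteins that act on arrestins, 9 of 15 were higher in mean. YCK1, a casein kinase of the plasma membrane that primes cargo for ubiquitination, stood at 0.56, 0.60, 0.72 and 0.60 in Kir2.1 arrays, against 0.89, 0.94, 0.82 and 0.73 in controls. Its groups were apart by a narrow margin, with a difference of -0.23 (SE 0.07, limma adjusted p = 0.551). CNB1, a calcineurin subunit, differed by 0.14 (SE 0.06). Endosome fusion and recycling genes had a median difference of 0.03 over 22 genes, with VPS21, an endosomal Rab, at 0.17 (SE 0.08) and PEP5, a tethering subunit, at -0.13 (SE 0.06). The remaining ESCRT and ubiquitin cofactors had a median of 0.05 over 15 genes, with the ubiquitin-conjugating enzyme gene UBC5 at 0.22 (SE 0.13) and VFA1, a Vps4-associated protein, at -0.10 (SE 0.07).

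**Figure D5:**
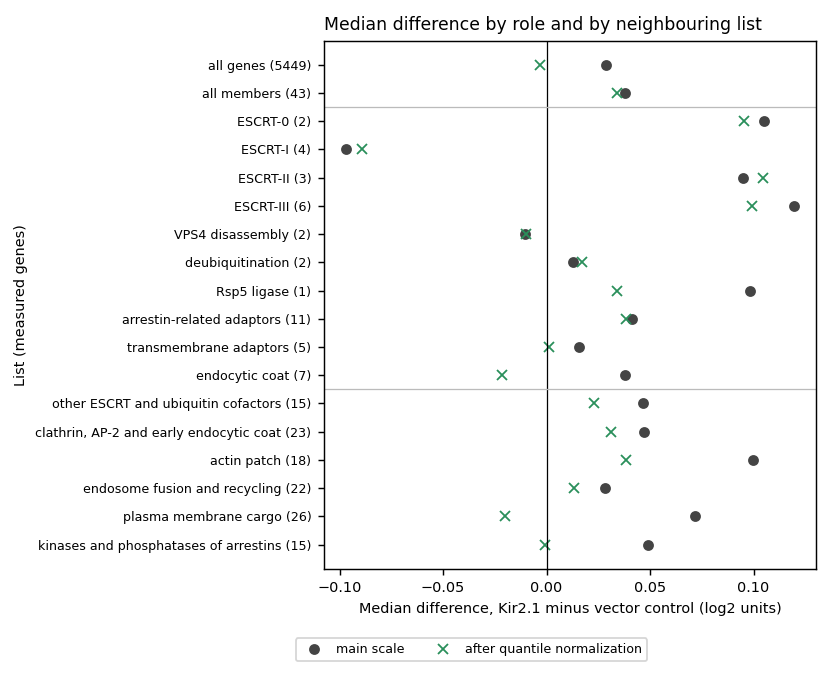
Median difference, Kir2.1 minus vector control in log2 units, of all genes, all members, the members by role and the other lists of the pathway, on the main scale (circles) and after quantile normalization (crosses), with the number of measured genes in brackets. On the main scale the ESCRT-III median of 0.12 is the highest and the ESCRT-I median of -0.10 the lowest of those drawn.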

How the data were processed

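Per the file headers and values, the authors deposited a standardized score for each probe set: over its 10715 probe sets the mean is 0 and the standard deviation 1 on each array, with minima of -0.47 to -0.44, maxima of 8.49 to 9.22 and the skew of a linear intensity. The sources used here do not give the probe summary, background removal or intensity zero. For a log2 scale, zero was set 0.005 below the lowest score of each array, and arrays were centred on the median of 5449 genes. Platform annotation, with symbols from the RefSeq table of the S288C assembly R64, named 1 budding yeast gene for 5498 probe sets; the brightest stood for a gene.

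Limma 3.58.1 (R 4.3.3) was fitted on all genes with group as the only term, two-sided, after being tested on simulated data. The simulated noise was independent between genes and arrays, so the differences between arrays that many genes share were not part of that trial. Precision is limited by having 4 arrays per group: the members' median standard error was 0.09. Paralogs were compared by exact permutation. P-values measure the spread between these arrays. Every member may be named, with an adjusted p in the main fit for the 6 of smallest p. Of each other list, the 2 genes of smallest p may be named. The adjusted p of HSE1 falls outside this rule and comes from the fit without Kir2.1 replicate 2 and vector control replicate 1. Members of the set, lists and tests were chosen with earlier results of these data known. Subunit pairs and counts of the lowest and highest array were chosen after values were seen. HXT6 was not analysed here.

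Alternatives were other zeros, scores without a log, other centrings, quantile normalization, all probe sets, a dim filter, no moderation, array weights, a replicate block, a principal component and omission of arrays.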

Additional observations from a re-analysis of the deposited data

Results flagged for a closer look

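An array far from the others of its group was looked for in 86 groups of 4 (43 members, each in Kir2.1 and vector control arrays), and 6 were found, or 6.98%. For independent groups, chance gives about 1 in 20. The 86 groups share the same arrays, so that rate is not the right expectation for them. No share of all genes is given, so the count is not read as a result about the members. In the Kir2.1 group replicate 2 lay far below the others for EDE1 (1.76, next value 1.99) and PAN1 (1.27, next value 1.48). In the vector control group replicate 1 lay far above the others for BRO1 (0.48, next value 0.24), ECM21 (1.10, next value 0.41), TRE1 (0.29, next value -0.02) and SSH4 (-1.50, next value -1.83). SSH4 was above background on 1 of 4 Kir2.1 arrays and 3 of 4 controls. All 4 found in the controls were on replicate 1, 1 of the arrays with high iron regulon values. The part of that array's state in these values was not tested.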

How the results depend on the processing

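The count of 0 members called was the same in 20 of 22 alternatives. It was 9 with array weights, which gave Kir2.1 replicates 2 and 4 weights of 0.23 and 0.27 and vector control replicate 1 a weight of 0.37, and 1 with the pair vector control replicate 1 and Kir2.1 replicate 2 left out. Members at an unadjusted p under 0.05 were 3 in the main setting, 5 without centring (0 higher, 5 lower) and 5 without moderation. They were 5 after adding principal component 1, 20 with array weights (18 higher, 2 lower) and 17 with that pair left out (15 higher, 2 lower). Omissions of single arrays gave 2 to 8, highest without Kir2.1 replicate 2, with 6 without Kir2.1 replicate 3. Of all genes, 6.37% were higher and 1.98% lower at that p in the main setting, and 0.11% and 18.3% without centring. Without moderation these shares were 7.12% and 2.50%, and with the component 12.8% and 4.26%. They were 26.9% and 19.2% with array weights, and 19.1% and 12.6% with the pair left out. Omitting Kir2.1 replicate 2 gave 13.5% and 6.37%, and omitting Kir2.1 replicate 3 gave 5.36% and 2.33%. The member median of 0.04 was -0.091 without centring, which shifts all genes alike, and 0.0077 to 0.08 over single omissions. It was 0.11 with array weights and 0.12 with the pair left out, with 31 of 43 members higher in each. The median of all genes was 0.03 in both. By median deviation of the members, the pair was the lowest Kir2.1 array (-0.13) and the highest control (0.10). Omitting or down-weighting those arrays therefore raises the member median, so the rise is not read as a result about the members. The member median was -0.0057 with centring on the 75th percentile and -0.025 after adding principal component 1. Members with separate groups, 3 in the main setting, were 12 with the 3 high-iron arrays left out and 21 with the pair left out, where fewer arrays make separation easier. No share of all genes is given for these omissions, so the counts are not read as a result about the members. The replicate block left 0 members and 0% of all genes called. At an unadjusted p under 0.05 it gave 2 members (1 higher, 1 lower), beside 6.90% higher and 2.73% lower of all genes. Deviations of same-numbered arrays from their group means correlated at 0.81, 0.69, -0.66 and 0.39 for replicates 1 to 4, so the numbers were not taken to pair the arrays. Among paralogs, BUL1 against BUL2 turned to 0.011 with the pair left out, and ran from -0.11 to 0.050 over single omissions, and ENT1 against ENT2 turned to 0.018 with the 3 high-iron arrays left out and ran from -0.064 to 0.026. The causes were not tested. SNF8, VPS28, LDB19, VPS24, MVB12 and SNF7 kept their sign in all 22.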
